A study of Mus musculus with 2 samples.

Results

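SNARE proteins and synaptotagmins are the parts of the machine that fuses vesicles with membranes, and their genes were followed here in a T-cell line. The members were all non-control probes whose gene name in the array files is Snap23, Snap25, Snap29, Snap47, or a numbered Stx, Vamp, Syt or Stxbp gene. That name rule gave 73 probes of 48 genes, out of 22221 named genes on the array. Snap25, a gene known from nerve terminals, drew attention because its signal in these cells was already known, so its level is a description here and was not tested.

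Total RNA of P5424, a mouse T-cell line, was labelled with Cy3 and hybridised to 2 one-colour Agilent arrays with 60-base probes. Both arrays hold the same kind of sample: untreated cells, labelled as lacking Rag2 (a subunit of the V(D)J recombinase) and P53 (gene Trp53), cultured in RPMI1640 to which fetal bovine serum and 2-mercaptoethanol had been added. They are replicate 1 and replicate 2 of 1 group, on 1 slide, and the labels do not say that they came from separate cultures. With no other group there was no comparison between conditions, no test and no p-value, and the number of arrays limits the precision.

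A probe is called detected when the scanner software gave it the mark for well above background on each of the 2 arrays, and a gene when any of its probes is. A value is log2 of the processed intensity minus the 75th percentile of that array (324 units on replicate 1, 299 on replicate 2). The median negative control spot gave 6.55 units on replicate 1 and 7.50 on replicate 2. Values are means ± SD of the 2 arrays (n = 2) and belong to the detected probe with the highest mean. Probes differ in how well they bind, so values of different probes do not rank genes. The 2 probes for Rag2 and the 1 for Trp53 were detected, and since the labels do not say which part of either gene was deleted, this does not check the genotype. All 10 T-lineage markers listed for this cell type were detected, beside 51.7% of all named genes. Among them were Cd3e at 8.31 ± 0.17, Cd3d at 8.91 ± 0.06 and Cd3g at 7.17 ± 0.03.

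In membrane fusion, a vesicle SNARE of the Vamp family pairs with target-membrane SNAREs of the syntaxin (Stx) and Snap families into a tight bundle that pulls the membranes together. Sec1/Munc18 (SM) proteins, several of which are named Stxbp, clasp and guide the syntaxins, and many synaptotagmins are calcium sensors that trigger the step. At the synapse the set includes Snap25, Stx1a, Vamp1 or Vamp2 and Syt1 or Syt2, whereas Snap23 and other members serve traffic in most cells. Cytotoxic lymphocytes release their granules with a related set that includes Stx11 and Stxbp2 (Munc18-2).

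The array carries 1 probe for Snap25, and that probe starts with a CA dinucleotide repeat. It lies at chr2:136607709-136607768 on the plus strand of mm9 and begins at base 1663 of the transcript the files assign to it. The 30-base stretches below show the repeat, in capitals, in the Snap25 probe, in 1 of the 3 Snap23 probes and in probes for 4 genes outside the family. Each is read 5′ to 3′ from the array files.

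Snap25: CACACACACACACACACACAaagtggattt

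Snap23, repeat probe: agatACACACACACACACACACACACAtga

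Idua: CACACACACACACACACACAgagtctaaat

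Itgam: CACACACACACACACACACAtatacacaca

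Fgf23: cCACACACACACACACACACAtacatgtaa

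Tacr2: tatgCACACACACACACACACACACACAtg

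The Snap25 run is 20 bases long and starts at base 1 of the probe. In the Snap23 repeat probe, at chr2:120425750-120425809 of mm9, the run is 23 bases long. No other member probe had a CA run longer than 7 bases or a GT run longer than 6. Counting either strand, the Snap25 probe shares 20 or more bases with 70 other probes of the array. For the Snap23 repeat probe that number is 79. The Idua, Itgam and Fgf23 probes lie at chr5:109112893-109112952, chr7:135261755-135261814 and chr6:127030758-127030817 of mm9, and the Tacr2 probe at chr10:61728517-61728576.

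The Snap25 probe gave 5028 intensity units on replicate 1 and 4970 on replicate 2, a value of 4.01 ± 0.07. Both arrays read it far above the negative control spots. Across the array, 24 of 24 probes with a CA run of 20 or more bases were detected, Snap25 included, against 40.1% of all 55681 probes. The share was 90.9% of 11 probes with a run of 16 to 19 bases, 88.9% of 27 with 12 to 15 bases, 44.0% of 232 with 8 to 11 bases and 40.0% of 55387 with shorter runs. The 23 other long-run probes had values between -0.87 and 6.11, with a median of 3.80. Detected probes with a CA run of 0 to 7 bases lay between -3.35 and 10.16, with a median of 1.09. Both ranges contain the value of the Snap25 probe, so its level does not tell the 2 kinds of probe apart.

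**Figure D1:**
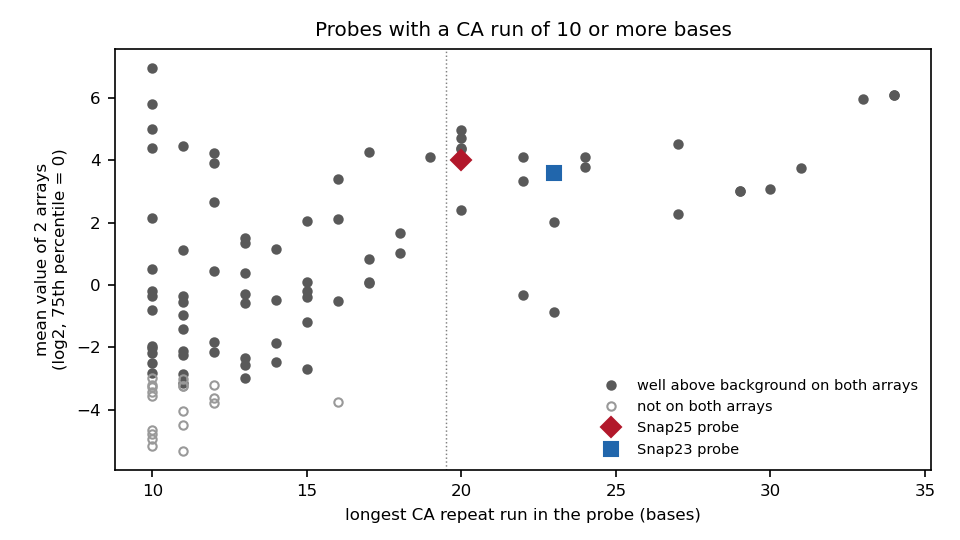
Mean value of the 2 arrays (log2, 75th percentile set to 0) against the longest CA repeat run, for every probe with a run of 10 or more bases. Each point is 1 probe, filled where it was well above background on both arrays; all 24 probes to the right of the dotted line, at 20 bases or more, are filled, with the Snap25 probe at 4.01 and the Snap23 repeat probe at 3.58.

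Several of those 24 probes belong to genes known from other tissues. Fgf23, a bone hormone of phosphate balance, was read at 5308 and 5438 units on replicates 1 and 2. Tacr2, a neurokinin receptor, was read at 3904 and 4834 units, and Oprm1, the mu opioid receptor, at 6664 and 7576. Of the 23 other long-run probes, 13 belong to a gene that also has a probe without such a run. In 8 of those 13 genes, Fgf23, Tacr2, Oprm1, Lhx6, Slc8a3, Krt222, Butr1 and Zfp663, none of the probes without the run was detected. In the other 5, Snap23 included, at least 1 was detected. Their probes disagreed. For Itgam, an integrin chain of myeloid cells, the repeat probe stood at 4.40 ± 0.17 and the brightest detected probe without the run at -2.52. For Idua, a lysosomal enzyme, these were 4.35 ± 0.13 and -1.52, for Slc17a5, a lysosomal sialic acid transporter, 4.09 ± 0.18 and -1.07, and for Hexim2, an inhibitor of transcription elongation, 4.97 ± 0.14 and 1.07. Since probes differ in how well they bind, the gap within a gene was not read as an effect of the repeat.

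Snap25 has no second probe on the array, so its transcript and the repeat cannot be told apart in its signal. The part of the repeat in the Snap25 signal was not tested. Leaving out probes with a long CA run, an alternative added after seeing the data, leaves Snap25 without a value and 29 of the remaining members detected.

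Snap23, the widely expressed relative of Snap25, could be read without the repeat. Its repeat probe gave 3422 and 4035 units on replicates 1 and 2, a value of 3.58 ± 0.25. A second probe, taken to span an exon junction at chr2:120411292-120411905 of mm9, gave 358 and 346 units, a value of 0.18 ± 0.05. The third, at chr2:120426853-120426912, gave 305 and 270 units, a value of -0.12 ± 0.04. Snap23 was therefore detected by 3 of 3 probes, and its value was 0.18 once the repeat probe was left out. The 3 probes are assigned to different transcripts of the gene. The junction probe, printed whole because it was taken to read joined exons, holds no CA run of that kind.

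Snap23, junction probe: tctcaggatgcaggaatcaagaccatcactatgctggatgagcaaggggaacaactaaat

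Over the family, 30 of 48 genes were detected (62.5%), beside 51.7% of all named genes. Another 3 were well above background on 1 array and 15 on neither. With the software's weaker mark, a positive and significant signal on both arrays, 36 members passed, beside 67.5% of all named genes. With the brightest negative control spot as an added limit 27 passed, beside 45.8%. The brightest control spot, at 15.1 units on replicate 1 and 101 on replicate 2, carries an outlier mark on each array. With the brightest unmarked control spot, at 10.6 and 9.64 units, as the limit (an alternative added after seeing the data), 30 members passed, beside 51.7%. The 31 Snap, Stx, Vamp and Stxbp genes had 24 members detected (77.4%) and the 17 synaptotagmins had 6 (35.3%). Detection also went with the number of probes a gene has on the array. Of the 28 members with 1 probe, 13 were detected, beside 45.1% of all genes with 1 probe. Of the 20 with 2 or more, 17 were detected, beside 64.4% of genes with 2 probes and 72.2% of genes with 3 or more. The part of probe number in the difference between roles was not tested.

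**Figure D2:**
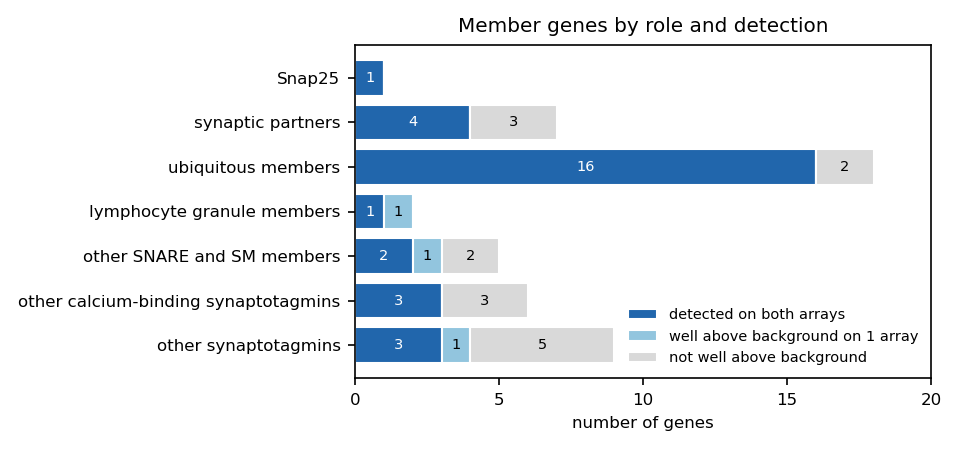
Number of member genes by role, divided into those well above background on both arrays, on 1 array and on neither. Synaptic partners have 4 of 7 detected and ubiquitous members 16 of 18.

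Of the 7 synaptic partners of Snap25, 4 were detected (57.1%), close to the 51.7% of all named genes. Vamp1 and Vamp2, the synaptobrevins of synaptic vesicles, were each read by 1 of 2 probes. Vamp2 gave 318 units on replicate 1 and 737 on replicate 2 at its detected probe (chr11:68905527-68905586 of mm9), a value of 0.64 ± 0.94. Its other probe, at chr11:68903917-68903976, gave 10.6 and 20.5 units and was not well above background. The 2 Vamp2 probes are set out here because they disagree, and neither holds a CA run of 8 or more bases. They are assigned to different transcripts of the gene.

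Vamp2, detected probe: agtgtgagagagaaagcaagctatttcctt

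Vamp2, undetected probe: attaaaggttttatgcccctttgtccagcc

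Vamp1 gave 577 units on replicate 1 and 347 on replicate 2 at its detected probe, a value of 0.52 ± 0.44, and 25.4 and 28.1 units at the other. Stx1a, a syntaxin of the presynaptic membrane, gave 6.11 and 6.75 units and was not well above background.

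The calcium sensors of fast synaptic release were not detected either. Syt1 gave 6.86 units on replicate 1 and 8.47 on replicate 2, and Syt2 gave 6.87 and 8.07. All 4 readings lie near the median negative control spot of their array. The software puts surrogate values in place of signals near background, so such readings may be surrogates rather than measured levels. Of the 4, only the Syt1 reading on replicate 2 carried the positive and significant mark. Each of these genes has 1 probe, which sets only an upper bound for it.

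Among the 18 ubiquitous members, 16 were detected (88.9%), beside the same 51.7%. The syntaxin of the plasma membrane in most cells, Stx4a, gave 11314 and 8073 units, a value of 4.94 ± 0.26, and its second probe was detected too at 3.69 ± 0.15. Stx2, another plasma membrane syntaxin, was detected by 1 of 2 probes at -1.04 ± 0.20. Stx3, known from apical membranes of epithelia and from sensory synapses, was the ubiquitous syntaxin that all 3 of its probes missed, with 5.87 to 6.56 units on replicate 1 and 6.30 to 7.48 on replicate 2.

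Other ubiquitous syntaxins act inside the cell. Stx5a, of the endoplasmic reticulum to Golgi step, stood at 4.76 ± 0.10, and Stx18, of the endoplasmic reticulum, at 2.41 ± 0.09. Stx6 and Stx16, of the trans-Golgi network, stood at 3.19 ± 0.07 and 2.43 ± 0.09. Stx7 and Stx8, partners in late endosomes, stood at 2.00 ± 0.16 and 2.45 ± 0.11. Stx12, of recycling endosomes, gave 384 units on replicate 1 and 661 on replicate 2, a value of 0.70 ± 0.64. Stx17, of autophagosomes, was detected by 3 of 3 probes with a value of -0.16 ± 0.23.

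Stx8 was split between its probes. The detected one spans 11295 bases of mm9, at chr11:67786776-67798070, and was taken to cross an exon junction. It gave 1675 and 1720 units. The other, at chr11:68020590-68020649 and starting at base 4043 of its transcript, gave 6.83 and 7.92 units. The sequences below are the whole junction probe and the first 30 bases of the other.

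Stx8, junction probe: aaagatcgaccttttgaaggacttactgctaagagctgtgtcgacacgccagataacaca

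Stx8, undetected probe: tgattattaattatatgcatcttaaatctg

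Among the other Snap proteins, Snap29, which acts in autophagosome fusion, was detected by both probes with a value of 2.54 ± 0.21. Snap47 was likewise detected by both probes, with a value of 3.70 ± 0.03. The vesicle SNAREs of general traffic were Vamp3, of recycling endosomes, at -1.03 ± 0.26, Vamp4, of the trans-Golgi network, at 1.57 ± 0.12, and Vamp7, of late endosomes and lysosomes, at 0.76 ± 0.10. Vamp8, of endosomes and secretory granules, gave 7.19 and 7.88 units at its single probe and was not well above background.

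**Figure D3:**
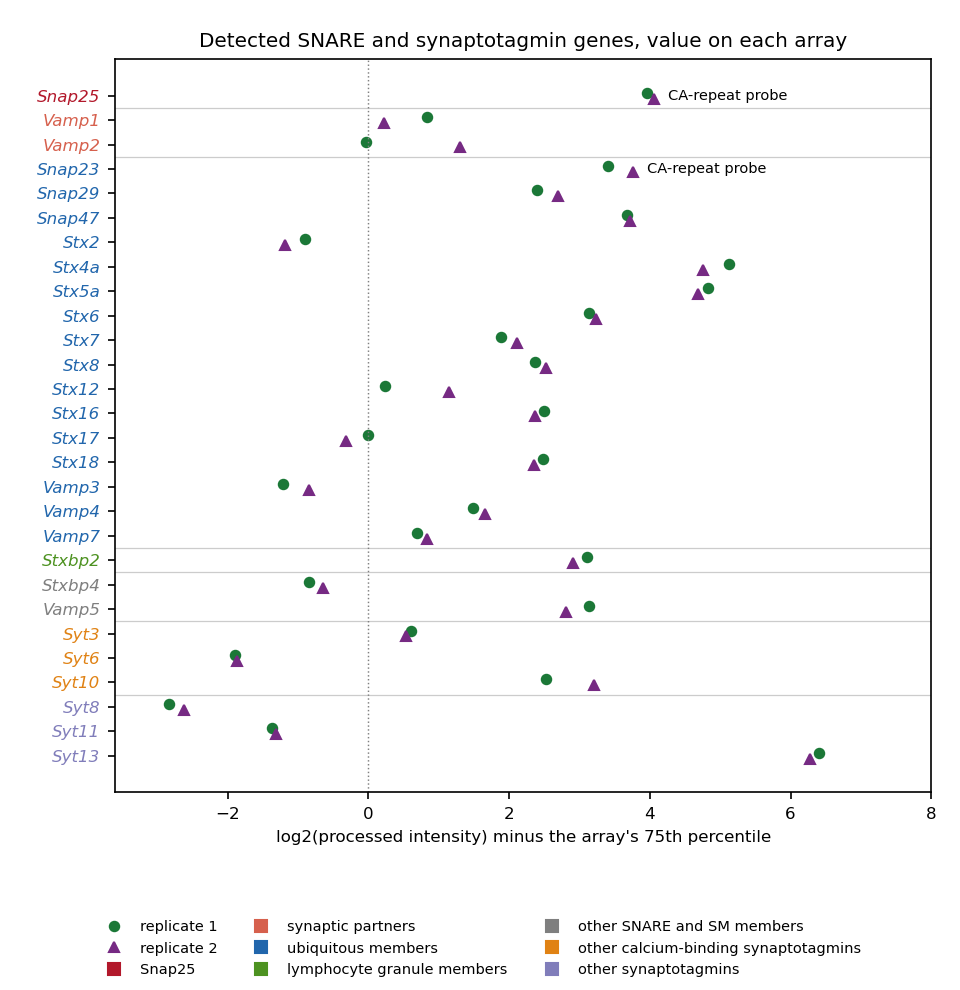
Value of the detected member genes shown, on replicate 1 (circles) and replicate 2 (triangles), as log2 of the processed intensity minus the array's 75th percentile, grouped by role. The Snap25 and Snap23 values come from probes with a CA repeat, and the 2 points of Vamp2 lie farthest apart, at -0.03 on replicate 1 and 1.30 on replicate 2.

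Of the pair known from lymphocyte granule release, Stxbp2 was detected by both probes, the brighter with signals of 2780 and 2240 units. The dimmer Stxbp2 probe shares 20 or more bases with a probe for 1 other gene, and the brighter one shares none. Stx11 gave 21.8 units on replicate 1, where it was not well above background, and 56.6 on replicate 2, where it was. The call for Stx11 therefore rests on 1 array.

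Among the remaining Vamp, Stx and Stxbp genes, Vamp5, known from muscle, stood at 2.97 ± 0.23. Stxbp4, a syntaxin-4 binding protein, was detected by 2 of 4 probes, with a value of -0.74 ± 0.14. Stxbp5 (tomosyn), which binds syntaxin in place of a vesicle SNARE, gave 37.4 units on replicate 1 and 25.3 on replicate 2 and was above background on replicate 1 alone. Stx19 and Stxbp6 (amisyn) were not well above background.

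Synaptotagmins were detected unevenly. Syt13, a member without the usual calcium-binding residues, gave 27491 and 22976 units at its 1 probe (chr2:92795818-92795877 of mm9), a value of 6.34 ± 0.10. Syt10, a calcium-binding member known from growth factor release in olfactory neurons, gave 1867 units on replicate 1 and 2773 on replicate 2 (chr15:89612967-89613026), a value of 2.87 ± 0.49. Neither probe shares 20 bases with another probe of the array, and the first 30 bases of each are given below because no second probe reads these genes.

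Syt13: acatgtctggttacactttggagcacaaaa

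Syt10: aggccaccgtccacaccataaaagcctcca

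Syt3, also calcium-binding, was detected by both probes with a value of 0.58 ± 0.04. Syt11, a member that does not bind calcium, gave 126 and 120 units, a value of -1.34 ± 0.04, at a probe that shares 20 or more bases with 1 unnamed probe. Syt6 at -1.88 ± 0.01, from 1 of 2 probes, and Syt8 at -2.73 ± 0.14 were also detected, with signals above all unmarked negative control spots of both arrays and below the marked one of replicate 2. Syt8, at 45.7 and 48.4 units, stood just inside the detection call and Stxbp5 just outside it. Syt16 gave 34.9 units on replicate 1 and 23.5 on replicate 2 and was above background on replicate 1 alone. Syt4, Syt5, Syt7, Syt9, Syt12, Syt14, Syt15 and Syt17 were not well above background; among them Syt7 is the sensor of slow release and of lysosome exocytosis.

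Probes of 1 gene disagreed on detection in 6 of the 20 members with more than 1 probe: Stx2, Stx8, Stxbp4, Syt6, Vamp1 and Vamp2. Over the array, 22.6% of genes with more than 1 probe were split in this way. The detected and undetected probes of Vamp1, Vamp2 and Stxbp4 are assigned to different transcripts, and those of Stx2, Stx8 and Syt6 to the same one. All probes were detected for 11 of the 20 members and none for 3, Stx3, Syt7 and Syt15. The GC content of member probes had a median of 40.0% where detected and 41.7% where not.

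The 2 arrays gave close values for most members. The median absolute difference between replicates was 0.20 on the log2 scale for the 30 detected members and 0.16 for all detected genes. Vamp2 was the 1 member more than 2-fold apart, 2.52-fold higher on replicate 2, beside 0.783% of all detected genes. Stx12, 1.87-fold higher on replicate 2, Syt10, 1.61-fold higher on replicate 2, and Vamp1, 1.53-fold higher on replicate 1, also lay outside the central 95% of all detected genes, which ran from -0.61 to 0.55. Snap25 differed by -0.10, replicate 1 minus replicate 2.

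**Figure D4:**
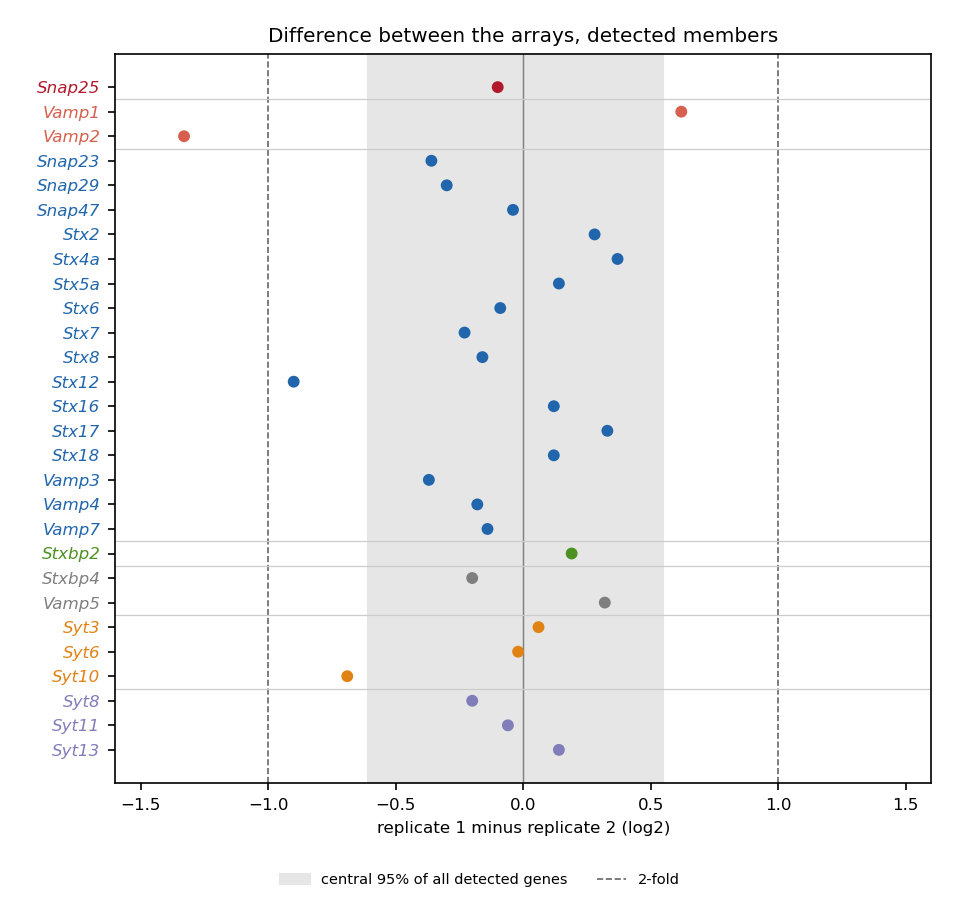
Replicate 1 minus replicate 2, on the log2 scale, for the detected members shown; the grey band is the central 95% of all detected genes and dashed lines mark 2-fold. Vamp2, Stx12, Syt10 and Vamp1 lie outside the band, and Vamp2 also lies past the 2-fold line.

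Other fusion genes were read beside the members. Of 20 further genes for fusion and traffic, 19 were detected, beside 51.7% of all named genes. They include Nsf, the ATPase that takes spent SNARE bundles apart, at 3.47 ± 0.04, its adaptors Napa at 5.42 ± 0.10 and Napb at -0.72 ± 0.27, and Stxbp3a (Munc18c), the SM partner of Stx4a, at 1.78 ± 0.01. Stxbp5l was the 1 not well above background.

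Regulators of synaptic vesicle release were detected in 8 of 20 cases, beside 51.7% of all named genes. With the positive and significant mark 15 of the 20 passed, beside 67.5%. Cplx2, a complexin that clamps assembled SNARE bundles, stood at 5.52 ± 0.07, Unc13b, a priming factor, at -2.41 ± 0.31, and Rab3a, a vesicle GTPase, at 0.95 ± 0.08. Cplx1, Cplx3 and Unc13a were not well above background. For lymphocyte granule release, 10 of 12 were detected, beside the same 51.7%. Among them were Unc13d, the priming factor of cytotoxic granules, at 1.58 ± 0.18, and Rab27a, its granule GTPase, at 0.63 ± 0.06. Sytl2 was not well above background and Gzmb was above it on 1 array.

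Markers of cells that use Snap25 were mostly not detected, beside 51.7% of all named genes that were. Of 15 neuron markers 4 were detected, Tubb3 at -0.02 ± 0.16, Elavl3 at 1.56 ± 0.17, Elavl4 at 2.61 ± 0.02 and Camk2a at -2.29 ± 0.35. Map2 and Slc17a7 were above background on 1 array, and Rbfox3, Nefl and Nefm were among the 9 that were not. Of 13 neuroendocrine and islet markers, Ins2 was detected at -2.88 ± 0.07, with 42.4 and 41.9 units, while Chga, Chgb and Scg2 were not. With the weaker mark, a positive and significant signal on both arrays, 9 of the 15 neuron markers passed. So did 8 of the 13 neuroendocrine and islet markers, beside 67.5% of all named genes. The part of such cells in the signals of the synaptic members was not tested.

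Genes beside Snap25 were also read. Within 1 Mb on either side of the Snap25 probe, 8 named genes had probes, Snap25 included, and 3 were detected, beside 51.7% of all named genes. The others detected were Mkks, 92 kb downstream, with 1054 and 832 units, and 2210009G21Rik, with 1330 and 1324 units at its brighter probe. Plcb4, 6330527O06Rik, Pak7, Ankrd5 and Jag1 were not well above background, nor were 4 probes without a gene name.

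The promoters of 36 of the 48 members were found in the RefSeq table of GRCm38.p6. Snap25, Vamp2 and Syt13 were among the members without one. CG dinucleotides were counted in the 250 bases before the start, on the CpG-richest start of each gene. Members detected had a median of 16 CG (n = 23) and members not detected on both arrays 15 (n = 13). Over all named genes with a promoter, the medians were 17 for 9109 detected genes and 4 for 8254 others. Syt9 and Syt2, with 40 and 30 CG, were not well above background, and Syt8, with 2 CG, was detected.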

How the data were processed

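Per the file headers, the authors obtained the deposited intensity values with Agilent Feature Extraction 10.5.1.1, which subtracted a fitted background, removed a spatial trend and put surrogate values in place of signals near background; nothing was scaled between arrays. The authors also deposited a table of log2 values of the same arrays, whose offset and centring are unknown (column medians of 5.18 and 5.18); it served as an alternative. Outlier spots, by the software's non-uniformity and population marks, were dropped (182 and 186, none of a member probe), and the 0 and 1 marks that the software deposited gave detection (at least 50% of a probe's spots). Log2 intensities were averaged per probe and scaled to the array's 75th percentile. Genes were named through a RefSeq table of GRCm38.p6, and the promoter sequences are of that build too. All 73 member probes kept their name. Probe positions are on mm9, and whether a probe lies in an exon or UTR was not analysed here. The Snap23 and Stx8 junction probes were named so because they span 614 and 11295 bases of mm9, more than their own length. CA and GT runs are the longest exact repeats on the probe's own strand. Python 3.11.15, pandas 2.3.3 and limma 3.58.1 (normexp alternative, offset 50) were used. Scaling, the call per gene and the differences between arrays were tested on simulated data, in which the detection marks were set to the truth. Gene naming, repeat runs and promoter counts were not tested in this way. Member genes are named, except a few whose results are not reported here but are kept in every count. Genes of other lists are named in list order, 3 detected and 3 not detected ones from its start, with all members of a class of 5 or fewer; Stxbp3a, the genes near Snap25 and the genes of CA-repeat probes were named after their values were seen. The members and lists were chosen with earlier results of these data known.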

Additional observations from a re-analysis of the deposited data

How the results depend on the processing

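The count of detected members was 30, and lay between 24 and 36 over the 14 alternatives, 12 planned and 2 added after seeing the data. It was 36 by the positive and significant mark and 27 with the brightest negative control spot as the limit, with Syt6 and Syt8 among those dropped. The brightest spot of each array is marked as an outlier, and with the brightest unmarked one, a limit added after seeing the data, the count was 30. Requiring every probe of a gene gave 24 members (beside 44.6% of all named genes, against 51.7%), 2 synaptic partners and 0 members more than 2-fold apart, against 30, 4 and 1; accepting 1 array, or the positive and significant mark, gave 2 members more than 2-fold apart.

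Scaling sets the level of the values. Snap25 stood at 4.01, and at 0.49 with the 75th percentile of detected probes, 8.00 with the median of all probes and 3.58 with normexp. The median of the detected members was 2.07, and -1.44, 6.06 and 1.88 under those settings, 0.73 with the mean of detected probes, 2.41 with the negative control limit, and 1.57 without probes that hold a CA run of 20 or more bases. Leaving out 1 array gave 31 to 32 members, 4 synaptic partners, 16 ubiquitous members, 3.96 to 4.06 for Snap25 and 1.94 to 2.20 for the median. No paired analysis was possible because there is 1 group. Signal over background limits the calls for Stx11, Stxbp5 and Syt16, which rest on 1 array.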

Other observations

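Probes with long dinucleotide runs differed between the arrays in a direction that went with the repeat they hold, CA or GT. All 24 probes with a CA run of 20 or more bases were higher on replicate 2, with a median of -0.29 for replicate 1 minus replicate 2 over the 24. All 52 probes with a GT run of 20 or more bases were detected, and all 52 were higher on replicate 1, with a median of 0.40. The median over all detected genes was 0.03. Among the member probes, Snap23's repeat probe differed by -0.36 and Snap25's by -0.10, both in the direction of the other CA probes. That direction is not particular to them. Of the 30 detected members, 18 were higher on replicate 2, with a median of -0.07 for replicate 1 minus replicate 2 over the 30. No cause was tested, and these values were looked at after the repeat in the Snap25 probe had been seen.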
